A study of Sus scrofa with 11 samples.

Results

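This report follows 38 genes of the large-artery endothelium, the single cell layer that lines the vessel, through the carotid artery of pigs (Sus scrofa). The genes were taken by name from a deposited table of 35670 genes. The table's own gene names matched 36 of them. ICAM2 was identified through its gene identifier, and SELE by position, where its row overlapped the RefSeq gene by 0.562 of their joint span. The members were grouped by known role into 14 pan-endothelial genes, 7 growth factor receptors and ligands, 3 flow-responsive genes, 7 arterial genes with the SOX and Notch regulators, 4 leukocyte adhesion molecules and 3 lymphatic genes. The rule uses names only, though it was set with earlier results of these data known. After the filter on low counts 37 members were tested, and PROX1 was not.

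The study asked whether nanotubes that macrophages take up, carrying a chemical that blocks SHP-1 (a phosphatase), lower dying cells and inflammation in porcine atherosclerosis without causing anaemia. All animals ate a high-fat, high-calorie diet for 12 weeks and were infused by vein once a week, under general anaesthesia, over 15 to 30 minutes at 400 nM. The SWNT group received the carrier alone, single-walled carbon nanotubes, and the SWNT-SHP1i group the carrier with the inhibitor, so diet, anaesthesia and nanotubes are common to both groups and neither is untreated. Counts were analysed for 5 SWNT animals (replicates 1 to 5) and 5 SWNT-SHP1i animals (replicates 1, 2, 3, 5 and 6). SWNT-SHP1i replicate 4, labelled as having died before harvest, was not analysed here. The sources used here give no breed, sex, age or genotype, nor the part of the wall sampled. Each library has an animal number of its own, so replicates are animals.

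Endothelial cells hold together through the junction proteins PECAM1 and VE-cadherin (CDH5), answer to VEGF and angiopoietins through the receptors KDR, FLT1 and TEK, and sense blood flow, which switches on KLF2 and the nitric oxide synthase NOS3. Inflamed endothelium displays ICAM1, VCAM1 and the selectins, which catch passing leukocytes. A large artery also carries microvessels and lymphatics in its outer coat, so these genes can be read from more than one vessel type in a piece of wall.

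The total counts ran from 27593564 to 47718854 per library. Values below are depth-scaled counts, as CPM, after scaling by the trimmed mean of M values (TMM), and for groups they are given in the order of the replicates above. Smooth muscle markers, which define the labelled tissue, were present in every library, their 10 genes summing to 41675 to 61892 CPM in SWNT and 19836 to 51012 CPM in SWNT-SHP1i. Markers of macrophages (11 genes) summed to 401 to 1208 CPM in SWNT and 415 to 2322 CPM in SWNT-SHP1i. SWNT-SHP1i replicate 6 held the lowest smooth muscle and the highest macrophage sum of the 10 libraries. SWNT replicate 3 held the highest sum of 9 immediate early genes (FOS, EGR1, ATF3 and the like, which rise within minutes of cell stress), 4931 CPM against 254 to 1501 CPM elsewhere. Animal numbers begin with B9 except in replicate 3 of each group, and nothing says that the number marks a batch.

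The endothelial label was checked against the level of each member per length, as CPM per kb of exon. GJA5, the gap junction protein connexin 40, had the highest median of the 38 members, 125 CPM per kb over the 10 libraries, with a range of 34.7 to 239. ESAM, a cell adhesion molecule of tight junctions, came next at 76.7 CPM per kb (42.6 to 113). After these came EGFL7, an extracellular matrix protein secreted by endothelium, at 63.4, the flow-induced factor KLF2 at 54.7, PLVAP, a protein of fenestrae and caveolae, at 50.1, the TGF-beta co-receptor ENG at 45.5 and PECAM1 at 45.0 CPM per kb. The bottom of the order held ICAM2 at 1.55, the lymphatic VEGF receptor FLT4 at 1.22, the lymphatic matrix gene MMRN1 at 0.641, E-selectin (SELE) at 0.154 and the lymphatic regulator PROX1 at 0.0182 CPM per kb. None of the 37 neighbouring pairs in this order was separated by more than the larger of their SDs over the libraries (n = 10). That rule sets medians against the spread between animals. It does not compare 2 genes within the same library, so it cannot decide whether neighbours differ. All pan-endothelial markers were detected in every library.

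**Figure D1:**
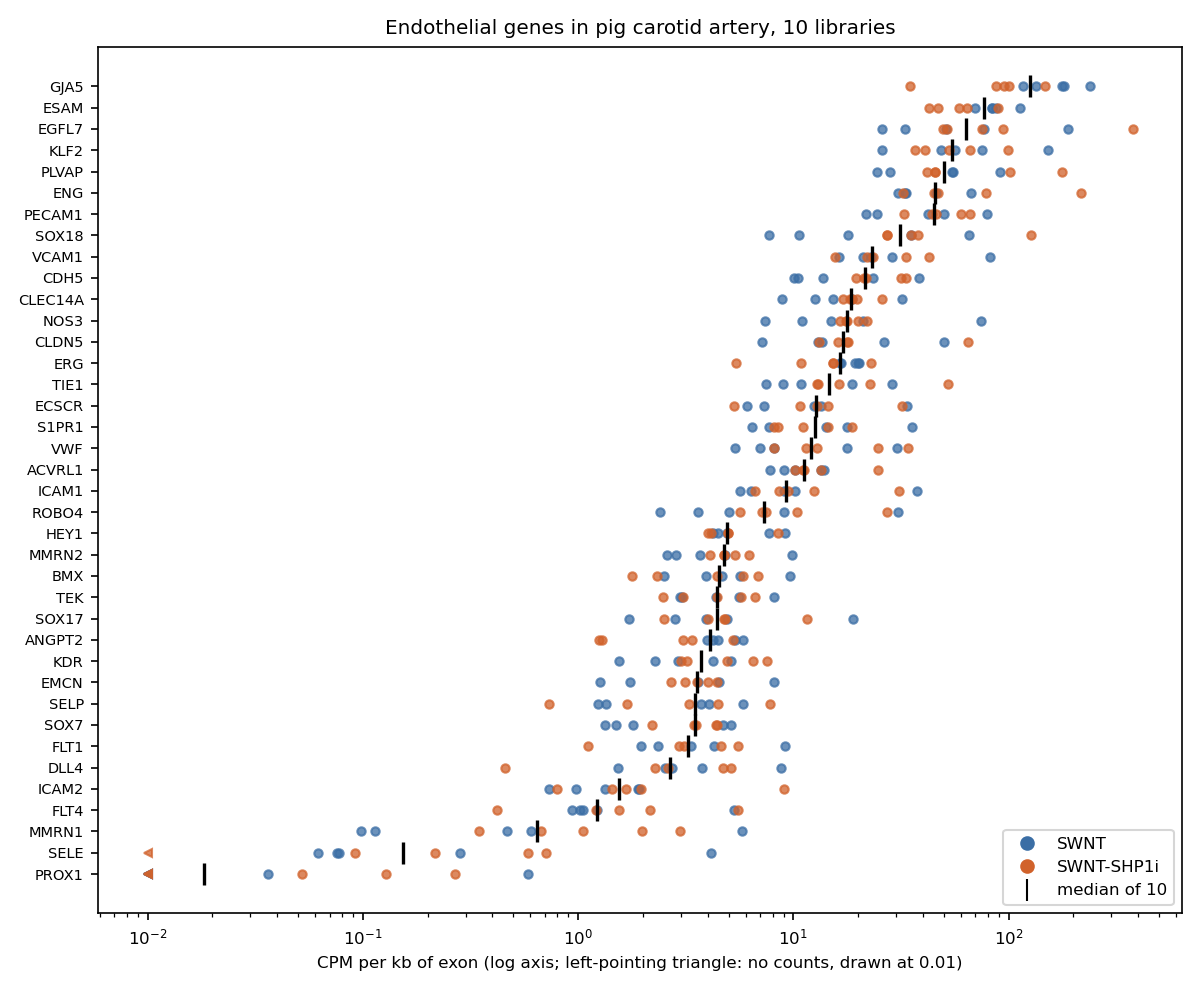
Level of each of the 38 endothelial genes per length, in CPM per kb of exon on a log axis, with 1 point per library coloured by group and a bar at the median of 10. GJA5 and ESAM lead the order at 125 and 76.7, and SELE and PROX1 close it, with triangles for libraries without counts.

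Most members rose and fell together from animal to animal. SWNT replicate 3 held the highest CPM of 21 of the 37 tested members and SWNT-SHP1i replicate 6 that of 10 others. SWNT replicate 5 held the lowest CPM of 16 members, SWNT-SHP1i replicate 3 of 8 and SWNT replicate 2 of 7. The 14 pan-endothelial genes summed to 1353, 741, 2373, 1039 and 698 CPM in SWNT and to 1032, 1719, 959.8, 1167 and 2578 CPM in SWNT-SHP1i, so the spread lay between animals of 1 group and the groups overlapped. In a piece of artery, fewer endothelial cells and less RNA per cell cannot be told apart. Over the tested members with counts in all libraries, the highest library stood at least 2.27-fold above the lowest (HEY1), with a median of 6.43-fold.

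**Figure D2:**
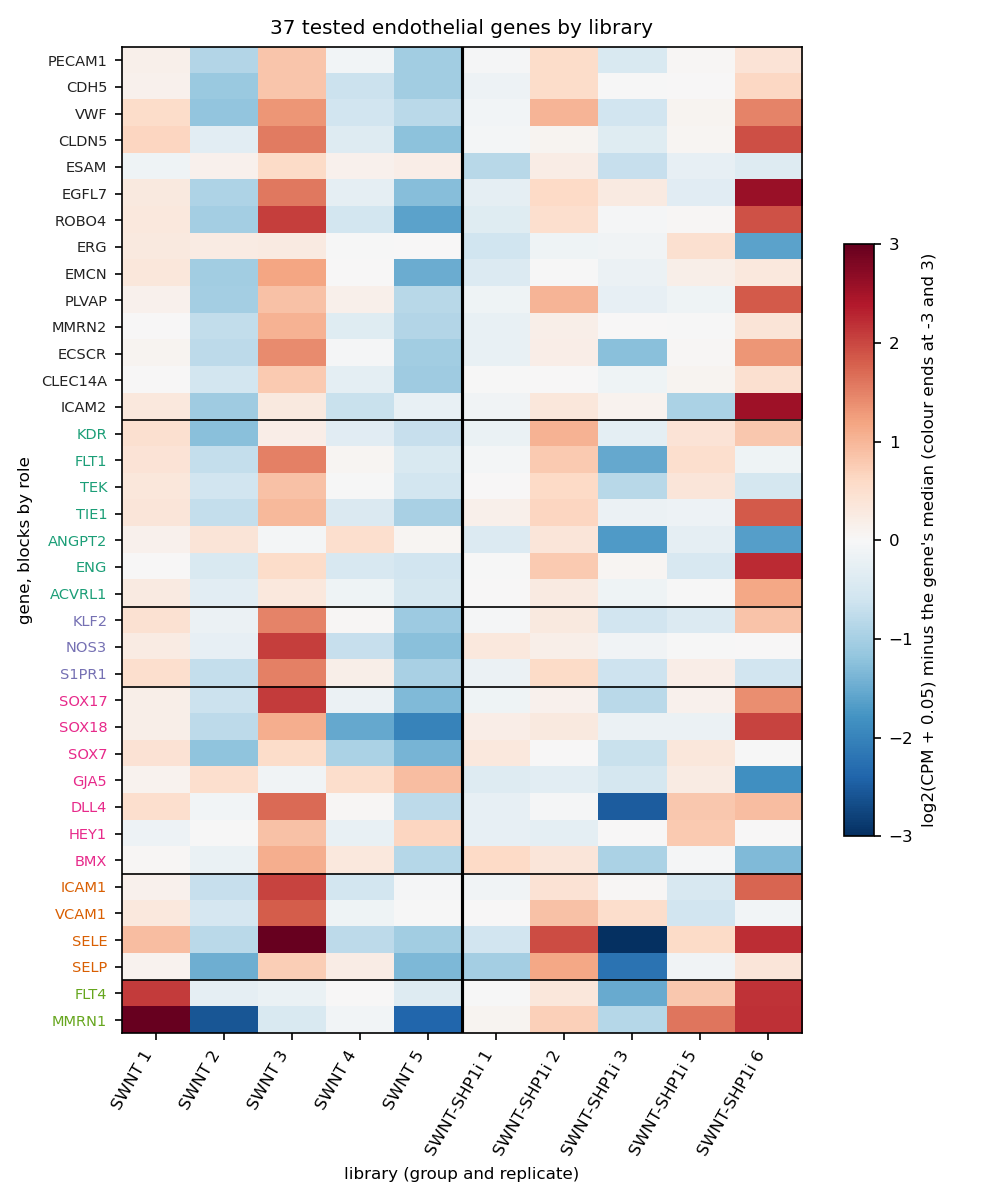
Each of the 37 tested members (rows, blocked by role) in each library (columns), as log2(CPM + 0.05) minus the gene's median over 10 libraries. SWNT replicate 3 is red over most rows and SWNT replicates 2 and 5 are blue. GJA5, ESAM, ERG, ANGPT2 and HEY1 are among the rows that depart from the column pattern.

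No endothelial member was called between the treatments. In edgeR's quasi-likelihood test 0 of 37 members passed an adjusted p under 0.05 (smallest adjusted p = 0.997), as did 0% of all 15930 genes tested. At an unadjusted p under 0.05 there were 2 members (5.41%), GJA5 and ESAM, both lower in SWNT-SHP1i, against a background of 4.64% of all genes (3.49% higher and 1.15% lower), so the share of members was near that of the table. DESeq2 called 0 members and 1 gene of 23984, and limma-voom called 0 of both. The fold change was positive for 19 members and negative for 18, with a median log2 fold change of 0.04 where all genes tested had 0.01. The groups did not overlap in CPM for 0 of 37 members, against 0.358% of all genes.

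That balance leaned on single animals. Without SWNT replicate 3 the median log2 fold change of the members was 0.52 with 31 of 37 positive, and 8 members reached an unadjusted p under 0.05, 7 of them higher (CDH5, EGFL7, ENG, MMRN2, ROBO4, SOX18 and TIE1), against 3.57% of all genes in that fit (2.73% higher, 0.841% lower). Over the 8 animals with B9 numbers the median was 0.57, with 33 of 37 positive and 11 members under 0.05, 10 of them higher, against 3.36% of all genes (2.77% higher, 0.586% lower). Leaving out SWNT-SHP1i replicate 6 gave a median of -0.20, with 14 of 37 positive and 2 members under 0.05, both lower, against 4.56% of all genes (2.59% higher, 1.97% lower). The smallest adjusted p of a member in these 3 fits was 0.951 (edgeR). Without SWNT replicate 2 or 5 the median was -0.13 or -0.10, each with 15 of 37 positive. In these fits 1 and 0 members were under 0.05, against 2.6% and 2.69% of all genes. With the animal number range as a covariate the median was 0.27, with 23 of 37 positive. There 3 members were under 0.05, all lower (ANGPT2, ESAM and GJA5), against 4.17% of all genes. In limma-voom with quality weights for the libraries, 30 of 37 members were positive with a median of 0.48, and 10 were under 0.05 9 of them higher, against 8.79% of all genes (4.87% higher, 3.92% lower; smallest adjusted p = 0.51). DESeq2 put 4 members under 0.05, ENG and ICAM2 higher and ESAM and GJA5 lower, against 4.88% of all genes (3.69% higher, 1.2% lower).

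**Figure D3:**
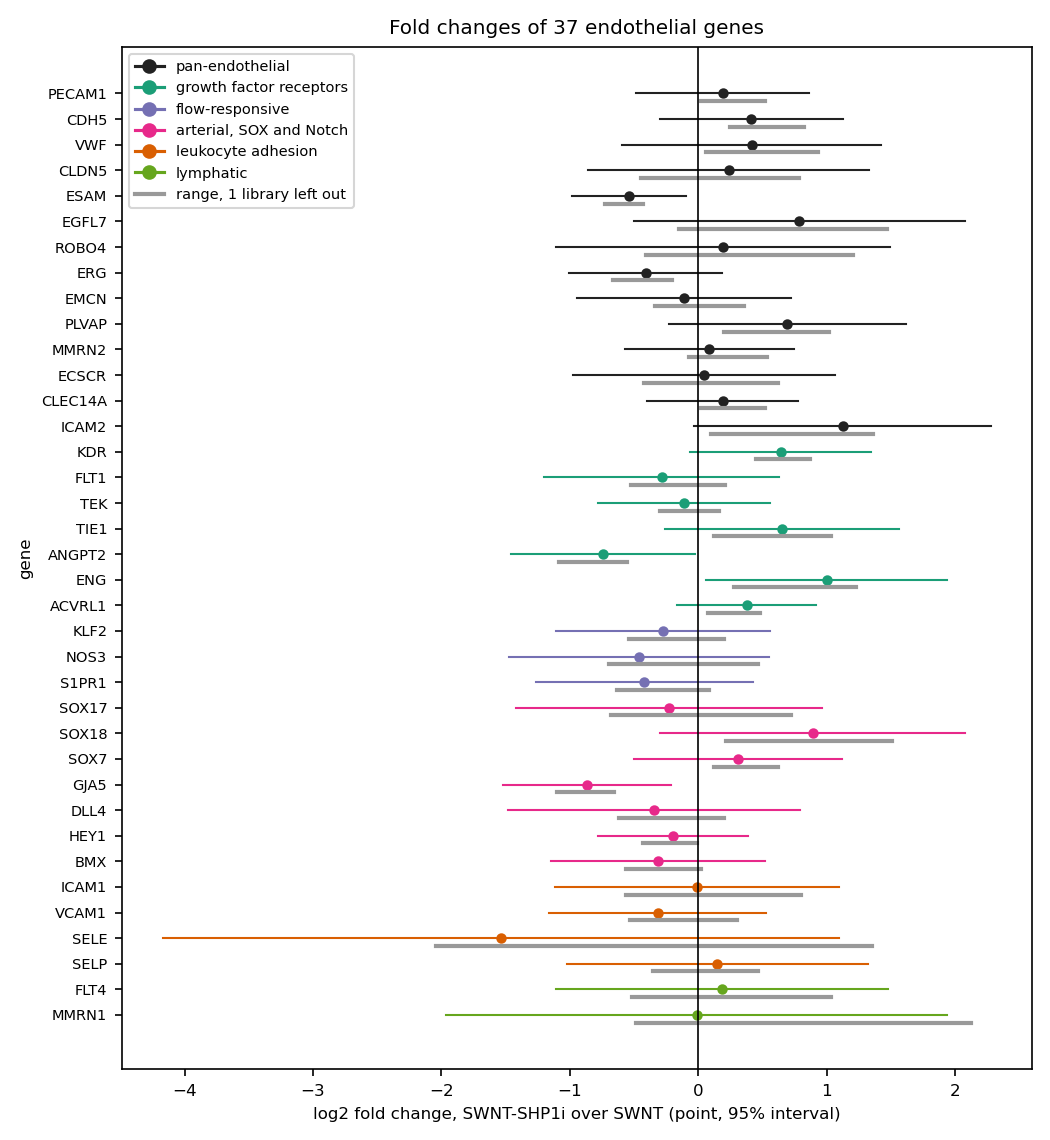
Log2 fold change of SWNT-SHP1i over SWNT for 37 members with 95% intervals (coloured by role), and in grey the range of the estimate with 1 library left out. The intervals, drawn by the normal approximation and not adjusted, lie to 1 side of 0 for GJA5, ESAM, ANGPT2 and ENG, of which the test puts only GJA5 and ESAM under an unadjusted 0.05.

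The pan-endothelial genes were mostly somewhat higher in SWNT-SHP1i, by less than their spread. Fold changes were positive for 11 of 14, with a median of 0.19, and 0 passed the test. PECAM1 (chromosome 12, 14649044 to 14723293, Sscrofa11.1), the adhesion molecule at endothelial junctions, measured 316, 155, 505, 268 and 137 CPM in SWNT and 279, 419.5, 207, 291 and 380.3 CPM in SWNT-SHP1i. The 5 SWNT-SHP1i values all lay inside the SWNT range, and the log2 fold change was 0.19 ± 0.34 (SE). CDH5, the cadherin of endothelial junctions, measured 97.7, 41.5, 159, 57.0 and 43.4 CPM in SWNT against 81.3, 132, 88.7, 90.6 and 138 CPM, again within the SWNT range. In log2 CPM, SWNT averaged 6.12 ± 0.83 and SWNT-SHP1i 6.70 ± 0.35 (SD, n = 5 each). With SWNT replicate 3 left out its log2 fold change went from 0.41 to 0.82.

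Several of these genes were set by SWNT-SHP1i replicate 6. CLDN5, the claudin of endothelial tight junctions, was at 159 CPM there and at 32.1 to 43.6 CPM in the other SWNT-SHP1i libraries, while SWNT measured 64.4, 33.0, 123, 31.7 and 17.5 CPM. EGFL7 stood at 484 CPM in the same animal against 63.3 to 120.3 CPM in its group. ICAM2, a ligand for leukocyte integrins that endothelium carries at rest, reached 63.3 CPM in replicate 6, where the others of that group had 5.58 to 13.6 CPM. Its log2 fold change of 1.12 ± 0.59 became 0.10 without that library, and those of CLDN5 and EGFL7 turned from 0.24 to -0.44 and from 0.79 to -0.15. The ICAM2 row spans 24577 bases where RefSeq gives the gene 5004, so its counts may include other transcripts. VWF, the clotting factor stored in endothelial granules, was at 422 CPM in replicate 6 and 372 CPM in SWNT replicate 3, and at 304 CPM or less in the remaining libraries. VWF gave 0.41 ± 0.51 with all libraries and 0.06 without replicate 6.

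ESAM and ERG departed from the other pan-endothelial genes. ESAM (chromosome 9, 51983023 to 51992393) measured 129, 155, 210.1, 155 and 163 CPM in SWNT and 79.0, 165, 87.1, 119 and 109 CPM in SWNT-SHP1i. All SWNT-SHP1i libraries but replicate 2 lay below the lowest SWNT library. Its fitted log2 fold change was -0.54 ± 0.23, with an unadjusted p = 0.0337 and an adjusted p = 0.997 (edgeR). It ran from -0.73 to -0.43 with 1 library left out. ERG, an ETS transcription factor that maintains endothelial identity, measured 47.6, 45.8, 47.2, 38.6 and 39.2 CPM in SWNT, the narrowest group of any pan-endothelial gene at an SD of 0.15 log2 CPM. In SWNT-SHP1i it was at 25.5, 35.9, 35.9, 54.3 and 12.8 CPM, below all SWNT libraries in 4 animals and above them in replicate 5. Its log2 fold change was -0.41 ± 0.30.

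The other pan-endothelial members were ROBO4, EMCN, PLVAP, MMRN2, ECSCR and CLEC14A, with log2 fold changes of -0.11 (EMCN) to 0.69 (PLVAP). PLVAP was above every SWNT library in SWNT-SHP1i replicates 2 and 6, at 246 and 431 CPM against at most 223. The lectin-like receptor CLEC14A was at 115 to 175 CPM in SWNT-SHP1i and at 59.9 to 217 CPM in SWNT. ROBO4, a guidance receptor that stabilises vessels, reached 112 CPM in SWNT replicate 3 and 99.99 CPM in SWNT-SHP1i replicate 6 and lay between 8.77 and 37.9 CPM in the rest. The log2 fold change of ROBO4 was -0.40 without that SWNT-SHP1i animal and 1.21 without that SWNT animal.

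Among the receptors of VEGF, angiopoietin and BMP signalling, ENG was the highest and ANGPT2 the lowest by fold change, and 0 of 7 passed the test. ENG (chromosome 1, 268309400 to 268343783) binds TGF-beta and BMP ligands together with ALK1, the product of ACVRL1, and is carried by activated macrophages as well as endothelium. ENG measured 156, 113, 228, 111 and 104 CPM in SWNT and 152, 268, 159.6, 109.9 and 734 CPM in SWNT-SHP1i. Replicate 6 was thus far above every other library. The log2 fold change of 1.0 ± 0.48 (unadjusted p = 0.0584, adjusted p = 0.997, edgeR) was 0.28 without it. ACVRL1, its partner receptor, measured 82.6, 55.2, 85.3, 62.5 and 47.7 CPM in SWNT against 68.8, 81.9, 62.3, 68.0 and 152 CPM, with a log2 fold change of 0.38 ± 0.28 that was 0.08 without the same animal. Macrophage markers were highest in that animal too, and their part in the ENG value was not tested.

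KDR, the main signalling receptor for VEGF, measured 31.2, 9.38, 25.7, 17.6 and 13.8 CPM in SWNT and 19.3, 45.7, 18.3, 29.9 and 39.2 CPM in SWNT-SHP1i. Replicates 2 and 6 of SWNT-SHP1i lay above every SWNT library. The log2 fold change of KDR was 0.64 ± 0.36 and stayed between 0.45 and 0.87 with any 1 library left out (unadjusted p = 0.0988). FLT1, which holds VEGF back as a decoy, differed by -0.29 ± 0.47 and was highest in SWNT replicate 3 at 57.7 CPM and lowest in SWNT-SHP1i replicate 3 at 7.03 CPM. The angiopoietin receptor TEK differed by -0.11 ± 0.34 and its orphan partner TIE1 by 0.65 ± 0.46, the latter led by 213 CPM in SWNT-SHP1i replicate 6. Without that library TIE1 differed by 0.12.

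ANGPT2, the angiopoietin that opposes TEK signalling, followed another pattern than its receptor. In SWNT it was even, at 28.8, 34.5, 25.5, 37.5 and 27.4 CPM, and in SWNT-SHP1i it was at 19.9, 33.8, 8.09, 21.8 and 8.36 CPM. Every SWNT-SHP1i library except replicate 2 was below the lowest SWNT value. The log2 fold change was -0.74 ± 0.36 (unadjusted p = 0.0643, adjusted p = 0.997, edgeR) and ran from -1.08 to -0.55 with 1 library left out. Without SWNT-SHP1i replicates 3 and 6 it was -0.28.

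The flow-responsive genes KLF2, NOS3 and S1PR1 had negative fold changes that came from SWNT replicate 3, and 0 of 3 passed the test. KLF2 (chromosome 2, 61270199 to 61273138), the transcription factor that laminar flow induces in endothelium, measured 169, 109.8, 345, 127 and 58.4 CPM in SWNT and 119.8, 149.9, 82.9, 92.5 and 224 CPM in SWNT-SHP1i. NOS3, the endothelial nitric oxide synthase, measured 89.3, 63.9, 318, 46.6 and 31.4 CPM in SWNT. In SWNT-SHP1i NOS3 was even, at 93.6, 85.1, 70.0, 74.8 and 75.7 CPM, an SD of 0.17 log2 CPM where SWNT had 1.27. S1PR1, the sphingosine-1-phosphate receptor that tightens the endothelial barrier, was at 99.6 CPM in SWNT replicate 3 and at 17.9 to 52.2 CPM in the other libraries.

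The log2 fold changes were -0.28 ± 0.42 for KLF2, -0.46 ± 0.52 for NOS3 and -0.42 ± 0.43 for S1PR1. Without SWNT replicate 3 they were 0.20, 0.46 and 0.08. For NOS3 the mean log2 CPM, which weighs libraries evenly, came to 6.26 ± 1.27 for SWNT and 6.31 ± 0.17 for SWNT-SHP1i (SD, n = 5 each), opposite in sign to the fitted change. The same disagreement in sign was found for 6 of the 37 members, namely EMCN, NOS3, SOX17, ICAM1, SELP and MMRN1. The immediate early genes peaked in the same SWNT animal, and their part in its KLF2, NOS3 and S1PR1 values was not tested.

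**Figure D4:**
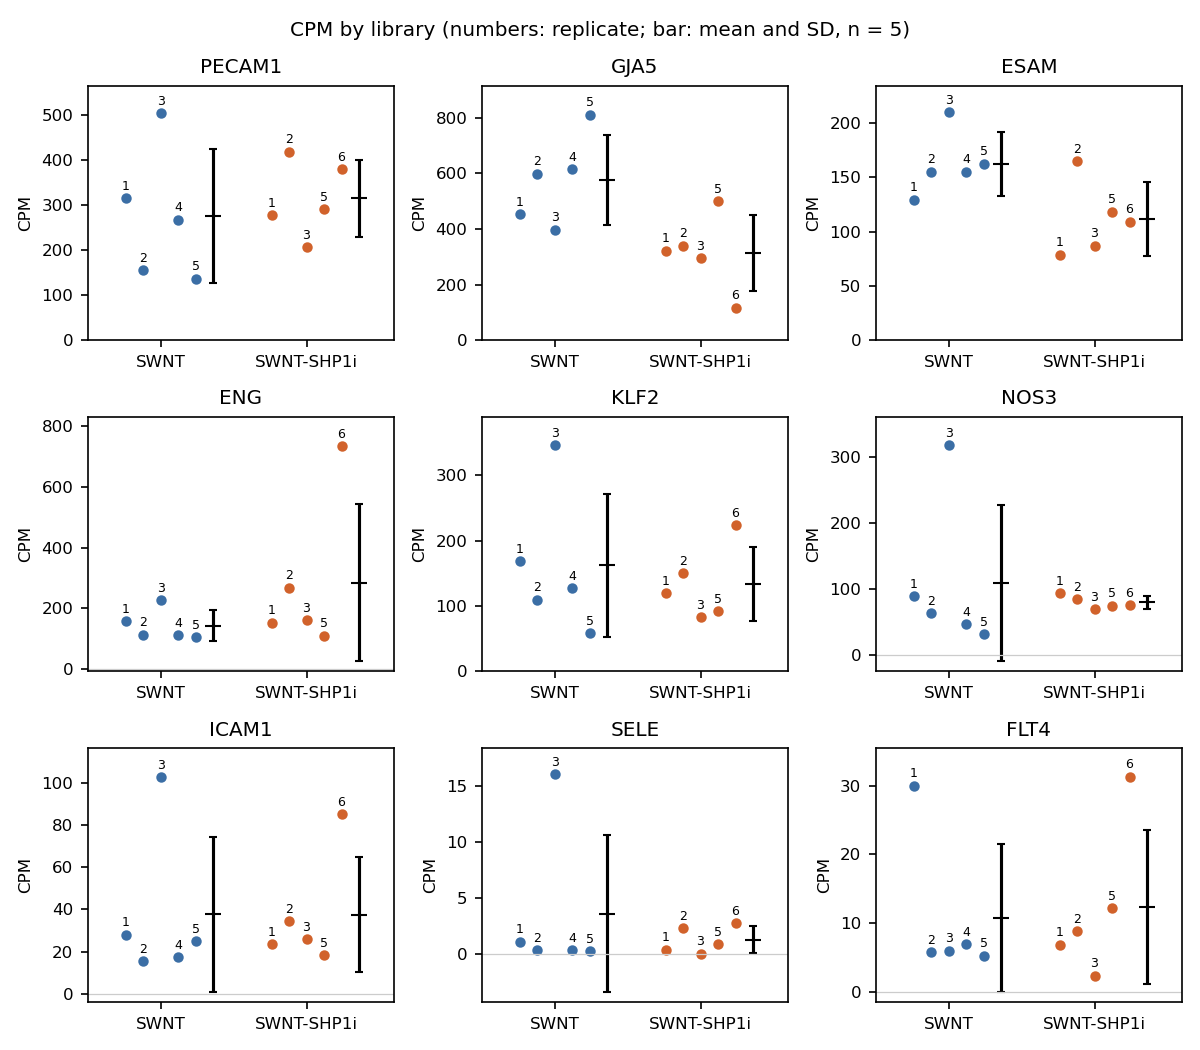
CPM of 9 members in every library, numbered by replicate, with the mean and SD of each group (n = 5) beside the points. KLF2, NOS3, ICAM1 and SELE are highest in SWNT replicate 3, ENG and FLT4 in SWNT-SHP1i replicate 6, and 4 of 5 SWNT-SHP1i libraries lie below all SWNT libraries for GJA5 and ESAM.

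Of the arterial, SOX and Notch genes, GJA5 had the smallest p of all members, and 0 of 7 passed the test. GJA5 (chromosome 4, 99854392 to 99871286) measured 453, 599.5, 398, 616 and 812 CPM in SWNT and 323, 340.3, 296, 500.2 and 118 CPM in SWNT-SHP1i. All SWNT-SHP1i libraries but replicate 5 were below the lowest SWNT library. SWNT averaged 9.12 ± 0.40 and SWNT-SHP1i 8.16 ± 0.77 log2 CPM (SD, n = 5 each), a log2 fold change of -0.87 ± 0.33 (unadjusted p = 0.0224, adjusted p = 0.997, edgeR). It was -0.66 without replicate 6, -0.56 when SWNT-SHP1i replicates 3 and 6 were both dropped, and -0.95 among the 8 B9 animals. Its highest library, SWNT replicate 5, was the lowest for PECAM1.

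The SOXF factors SOX7, SOX17 and SOX18, which specify arterial and lymphatic endothelium, went with the pan-endothelial genes instead. SOX17 measured 11.9, 6.84, 45.8, 9.49 and 4.19 CPM in SWNT and 9.76, 11.7, 6.08, 11.6 and 27.9 CPM in SWNT-SHP1i, highest in SWNT replicate 3. SOX18 measured 61.6, 31.6, 115, 18.6 and 13.5 CPM in SWNT against 61.9, 66.4, 47.6, 47.7 and 223 CPM, highest in SWNT-SHP1i replicate 6. Their log2 fold changes were -0.23 ± 0.61 and 0.89 ± 0.61. That of SOX18 was 0.22 without replicate 6, and that of SOX17 was 0.72 without SWNT replicate 3. SOX7 differed by 0.31 ± 0.41, at 4.01 to 15.6 CPM over all libraries.

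DLL4, the Notch ligand of arterial endothelium, was at 1.58 CPM in SWNT-SHP1i replicate 3 and at 5.27 to 29.9 CPM in the other libraries, with a log2 fold change of -0.35 ± 0.58. HEY1, a target of Notch, measured 11.2, 12.4, 23.1, 10.7 and 19.4 CPM in SWNT and 10.4, 10.1, 12.5, 21.5 and 12.5 CPM in SWNT-SHP1i. SWNT replicates 3 and 5 and SWNT-SHP1i replicate 5 were thus the high libraries, and the groups overlapped. For HEY1 the fitted difference was -0.20 ± 0.30. The tyrosine kinase BMX, found in large-artery endothelium, differed by -0.32 ± 0.43.

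The leukocyte adhesion molecules peaked in SWNT replicate 3 in 3 of 4 cases, and 0 of 4 passed the test. SELE (chromosome 4, 81281499 to 81299262), which endothelium makes only after activation, measured 1.09, 0.295, 16.03, 0.301 and 0.239 CPM in SWNT. In SWNT-SHP1i it was at 0.356, 2.27, 0, 0.839 and 2.75 CPM, where the 0 counts of replicate 3 allow up to 0.0815 CPM (3 counts, counting error only). SWNT replicate 3 thus stood far above the remaining 9 libraries. The row spans 17764 bases where RefSeq gives the gene 10597, so these counts may include other transcripts. The log2 fold change of -1.54 ± 1.34 turned to 1.35 without that library.

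ICAM1, which binds leukocyte integrins, measured 27.9, 15.5, 103, 17.4 and 24.8 CPM in SWNT and 23.6, 34.4, 25.8, 18.2 and 85.1 CPM in SWNT-SHP1i. The high pair was SWNT replicate 3 and SWNT-SHP1i replicate 6, and the log2 fold change was -0.01 ± 0.56. It was 0.80 without the first and -0.56 without the second, and its sign also turned in other settings, being near 0. VCAM1, the ligand of VLA-4, measured 69.5, 39.4, 198, 51.0 and 55.5 CPM in SWNT and 56.5, 104, 80.99, 37.6 and 53.3 CPM in SWNT-SHP1i, for a log2 fold change of -0.32 ± 0.43, or 0.30 without SWNT replicate 3. P-selectin (SELP), kept in the same granules as VWF, was at 2.48 to 11.6 CPM in SWNT and at 1.47 to 15.5 CPM in SWNT-SHP1i, a log2 fold change of 0.15 ± 0.60. Platelets also carry SELP and VWF. Their 8 markers with a row summed to 27.4 to 34.1 CPM in SWNT and 23.7 to 52.4 CPM in SWNT-SHP1i, and 6 were tested with 0 passing.

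The lymphatic genes were among the lowest members, and each was highest in a few animals that were not the same for every gene. FLT4 and MMRN1 had counts in all 10 libraries. PROX1, the master regulator of lymphatic identity, had counts in 5 of 10 libraries. It reached 2.19 CPM in SWNT replicate 3, 0.998 CPM in SWNT-SHP1i replicate 6, and 0.48, 0.196 and 0.136 CPM in SWNT-SHP1i replicates 5 and 2 and SWNT replicate 1. The 5 libraries without counts allow up to 0.0753 to 0.0898 CPM. FLT4, the receptor for VEGFC on lymphatic endothelium, measured 30.0, 5.78, 6.01, 6.98 and 5.30 CPM in SWNT and 6.89, 8.82, 2.39, 12.2 and 31.3 CPM in SWNT-SHP1i. MMRN1, an extracellular matrix protein of lymphatic vessels and platelets, was highest in SWNT replicate 1, at 24.4 CPM, then in SWNT-SHP1i replicates 6 and 5 at 12.6 and 8.33 CPM, with 0.413 to 4.45 CPM in the rest. So 1 SWNT animal and 1 SWNT-SHP1i animal stood out for FLT4, and the log2 fold change was 0.18 ± 0.66. Without SWNT replicate 1 it was 1.03 for FLT4 and 2.12 for MMRN1, from -0.01 for MMRN1 with all libraries.

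How far the members kept together was measured against PECAM1 and, as a smooth muscle reference, against MYH11, the smooth muscle myosin heavy chain. These 73 relations were computed over the 10 libraries on log2 CPM, with permutation p-values adjusted over all 73. Both groups were pooled and permuted together, so r holds any difference between the groups as well as the spread within them. PECAM1 correlated positively with 23 of 36 other members (r of 0.75 to 0.92, largest adjusted permutation p = 0.0344), and with 24 by Spearman's rho. An r at least as high as the lowest of these was found for 1.18% of all other tested genes. For the 23, r was 0.58 to 0.98 without SWNT replicates 2 and 5, the libraries farthest from the median of PECAM1, and 0.65 to 0.96 among the B9 animals. All 23 come from the same 10 libraries and share their scaling. The set held KLF2, NOS3, S1PR1, SELE, SELP and the SOXF factors as well as the junction genes CDH5 and CLDN5, but not ESAM or GJA5.

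GJA5, ERG and ANGPT2 were the 3 of 37 members with a positive r with MYH11 that passed, where 11.9% of all tested genes had an r as high, so that count is no more than the background. GJA5 had r = 0.93 with MYH11 (permutation p = 0.00051, adjusted p = 0.0062) and rho = 0.85 (permutation p = 0.00286, adjusted p = 0.011), against r = -0.54 with PECAM1 (adjusted permutation p = 0.182). ERG had r = 0.89 with MYH11 (permutation p = 0.00287, adjusted p = 0.014) and rho = 0.65 (permutation p = 0.0483, adjusted p = 0.109). ANGPT2 had r = 0.78 (permutation p = 0.0104, adjusted p = 0.0292) and rho = 0.60 (permutation p = 0.0742, adjusted p = 0.151). Without SWNT replicate 2 and SWNT-SHP1i replicate 6, farthest from the median of MYH11, the 3 values of r were 0.78, 0.64 and 0.57. Among the B9 animals they were 0.94, 0.93 and 0.81. By rank, GJA5 alone passed. ESAM had r = 0.56 with MYH11 (adjusted permutation p = 0.164) and 0.15 with PECAM1, although 0.73 with PECAM1 without SWNT replicates 2 and 5. MYH11 itself measured 9165, 15825, 11502, 9342 and 15458 CPM in SWNT and 6612, 9188, 5511, 14276 and 2399.5 CPM in SWNT-SHP1i. Its log2 fold change was -0.69 ± 0.39, and those of GJA5, ERG and ANGPT2 were negative too. No r within a group was computed, so the group difference and the spread between animals are not separated here.

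For ENG, ICAM2, EGFL7 and ACVRL1 the relation with MYH11 was negative (r of -0.85 to -0.74, adjusted permutation p = 0.0231 to 0.0467). These are 4 of 37 members, where 10.5% of all tested genes had an r as low. It rested on the extreme libraries, since r was -0.39 to -0.21 without SWNT replicate 2 and SWNT-SHP1i replicate 6. Among the B9 animals, which hold both of these libraries, r was -0.92 to -0.90. GJA5, ERG and ANGPT2 had no positive r with PECAM1, nor had HEY1, at r = -0.0025.

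**Figure D5:**
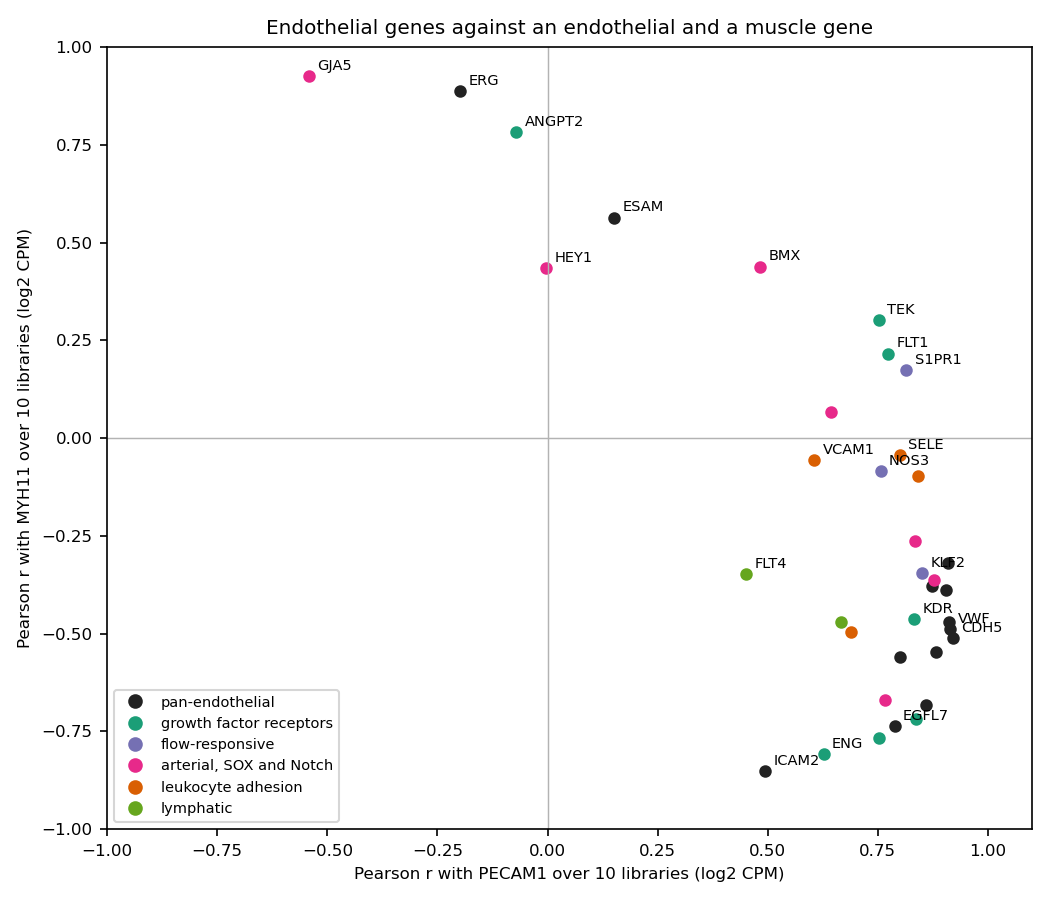
Pearson r of 36 members with PECAM1 (x axis) and with MYH11 (y axis) over 10 libraries on log2 CPM, coloured by role. Most members lie at the right, with r of 0.75 to 0.92 for the 23 that passed, and GJA5, ERG and ANGPT2 lie at the upper left, at r of 0.78 to 0.93 with MYH11.

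Among 8 pairs of genes taken by known biology, 4 correlated after adjustment. PECAM1 and CDH5 had r = 0.92 (adjusted permutation p = 0.00272) and rho = 0.94 (adjusted p = 0.00224), with r = 0.80 without the 2 farthest libraries. VWF and SELP, which share a storage granule, had r = 0.79 (adjusted permutation p = 0.0197) and rho = 0.84 (adjusted p = 0.0146), with r = 0.77 without the 2 farthest. With PECAM1 they had r = 0.91 and 0.84, so a relation particular to this pair is not shown. No share over all genes was computed for the pairs. KLF2 and NOS3 had r = 0.82 and ICAM1 and SELE r = 0.75 (both adjusted permutation p = 0.0197), with rho = 0.70 and 0.68 (both adjusted p = 0.0678). For these last 2 pairs r was 0.23 and 0.27 when the 2 farthest libraries, SWNT replicate 3 among them, were left out. Among the B9 animals, which also lack SWNT replicate 3, r was 0.69 and 0.78. The fall thus depended on which other library was left out. TEK and TIE1, KDR and FLT1, SOX17 and GJA5, and PROX1 and FLT4 did not pass (r of 0.33, 0.57, -0.55 and 0.49; rho of 0.61, 0.61, -0.44 and 0.59; smallest adjusted permutation p = 0.0892). PROX1 had counts in 5 of 10 libraries.

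Relative to PECAM1 in the same library, the groups overlapped for all 36 other members (0 not overlapping, against 0.283% of all genes, 0.251% being lower in SWNT-SHP1i). GJA5 stood 1.18 ± 1.15 log2 units above PECAM1 in SWNT (SD, n = 5) and at -0.10 ± 0.98 in SWNT-SHP1i. ANGPT2 stood at -3.02 ± 0.88 and -4.27 ± 0.80, ESAM at -0.62 ± 0.71 and -1.50 ± 0.28. CLEC14A was at -1.19 in both groups, with SDs of 0.20 and 0.32. These ratios compare counts without regard to gene length, so only their change between groups can be read.

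The other genes of the same pathways were counted from lists of known biology, and 0 passed the test in any of them. Of 22 further endothelial genes tested, 13 were positive (median log2 fold change 0.04). At an unadjusted p under 0.05 (edgeR) 3 were higher and 0 lower, against 3.49% and 1.15% of all genes. The smallest p values were those of the apelin receptor APLNR (0.96 ± 0.41) and CD34 (0.51 ± 0.22). In the list of shear stress and KLF2 targets 8 of 18 were positive. EDN1, the vasoconstrictor endothelin 1, had a log2 fold change of -1.77 ± 0.65 (unadjusted p = 0.0184) with 6.11 to 95.4 CPM in SWNT and 4.83 to 12.3 CPM in SWNT-SHP1i, and PLXND1 one of 0.46 ± 0.28 (unadjusted p = 0.117). In the VEGF and angiopoietin axis 6 of 12 were positive, with the co-receptor NRP2 at 1.17 ± 0.37 (unadjusted p = 0.00746) and the lymphatic growth factor VEGFD at 1.30 ± 0.54.

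BMP and ALK1 signalling genes were negative in 11 of 13, with a median of -0.33 and 0 at an unadjusted p under 0.05, led by the ligands BMP6 (-1.33 ± 0.68) and BMP4 (-0.62 ± 0.32). The list summed to 1420 CPM in SWNT replicate 3 and to 485 to 780 CPM in the other 9 libraries. The Notch list had 6 of 13 positive, with the arterial connexin GJA4 at 1.33 ± 0.50 and the mural receptor NOTCH3 at -0.65 ± 0.28. GJA4, the other arterial connexin, thus had the sign opposite to GJA5. It ran from 9.64 to 21.1 CPM in SWNT and from 16.04 to 96.1 CPM in SWNT-SHP1i. NF-kB and cytokine response genes had 9 of 15 negative, led by CXCL2 (-3.77 ± 1.27) and TNFAIP3 (-1.49 ± 0.56). Their sum was 1598 CPM in SWNT replicate 3 and 451 to 769 CPM in the other 9 libraries, the same animal as the peak of SELE, ICAM1 and VCAM1.

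The list of leukocyte ligands of adhesion leaned the other way, with 7 of 10 positive. Among these was CD34, also counted above as an endothelial gene. The integrin chain ITGB2 differed by 1.46 ± 0.56, with an unadjusted p = 0.0226 (edgeR). ITGB2 ran from 21.4 to 56.6 CPM in SWNT and from 19.9 to 262 CPM in SWNT-SHP1i, so the groups overlapped. Capillary and venous markers had 3 of 9 positive, with EPHB4 at 0.65 ± 0.28 and HPGD at -0.56 ± 0.60. Of the other lymphatic genes 3 of 7 were positive, led by PDPN (1.48 ± 0.61) and FOXC2 (-0.90 ± 0.51). PDPN and LYVE1 are also carried by macrophages or fibroblasts.

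Markers of other cells in the wall shifted beside these genes without passing the test over all genes. All 11 macrophage markers were positive (median 1.47), led by CD163 (1.82 ± 0.45) and CD14 (1.71 ± 0.56). Of the 11, 10 were at an unadjusted p under 0.05 (edgeR), against 3.49% of all genes higher. Genes of 1 list share the same libraries and are not independent. The macrophage sum was 2322 CPM in SWNT-SHP1i replicate 6 and 415 to 1465 CPM in the rest of its group. All 8 fibroblast markers were positive (median 0.48), led by SFRP2 (4.88 ± 1.31) and COL1A1 (0.98 ± 0.29). SFRP2 ran from 6.71 to 72.9 CPM in SWNT and from 24.7 to 4323 CPM in SWNT-SHP1i. Smooth muscle markers were negative in 10 of 10 (median -0.62), led by CNN1 (-0.84 ± 0.24) and TAGLN (-0.67 ± 0.21). Of these 10, 5 were under 0.05, against 1.15% of all genes lower. Pericyte markers were negative in 5 of 7, led by NOTCH3 and CSPG4 (-0.60 ± 0.26). Pericyte sums were 4046 to 5954 CPM in SWNT and 1874 to 5511 CPM in SWNT-SHP1i. GJA5, ESAM, ERG and ANGPT2 had negative fold changes alongside the muscle lists, and the part of muscle content in those values was not tested. Adipocyte sums were 54.8 to 450.3 CPM in SWNT and 78.2 to 339 CPM in SWNT-SHP1i, with SWNT replicates 2 and 5, lowest for PECAM1, also lowest for adipocyte genes at 55.7 and 54.8 CPM. These sums include FABP4, at 42.0 to 214 CPM in SWNT, which is also counted above among the capillary and venous markers. The adipocyte sum is thus not separate from endothelial signal. T and NK cell genes were positive in 4 of 6, Schwann cell genes negative in 5 of 5, and erythroid genes negative in 4 of 5, with 1348 CPM in SWNT replicate 3, 50.02 to 339.6 CPM in the other SWNT libraries and 30.9 to 252 CPM in SWNT-SHP1i. Of 6 skeletal muscle genes with a row, the 1 tested, CKM, was at 2.61 ± 0.69.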

How the data were processed

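Poly-A RNA-seq libraries of carotid artery from 10 pigs were analysed, 5 per group. The deposited table holds raw counts per gene on Sscrofa11.1. The submitters' processing notes name Trim Galore, STAR and DESeq2. Versions, annotation release, counter and strandedness: not given in the sources used here, so reads of overlapping genes cannot be told apart. Genes without a usable name in the table were named by gene identifier or by position against RefSeq (overlap of at least 0.5 of the joint span).

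From the counts, edgeR 4.0.16 in R 4.3.3 kept 15930 genes (filterByExpr, count minimum 10), which held at least 99.89% of each library's counts, scaled them by TMM and fitted a robust quasi-likelihood model of the 2 groups. p-values were adjusted over all tested genes by Benjamini-Hochberg with a threshold of 0.05. SEs are approximate, taken from each log2 fold change and its F statistic. Log2 CPM used a prior count of 2. Correlations used 100000 permutations over the libraries of both groups together. The scripts were tested on simulated data.

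Alternatives were RLE scaling, no filter, DESeq2 1.42.0, limma-voom 3.58.1 with quality weights, animal number range (B9 or not) as a covariate or a restriction, and leaving out libraries. The relations with PECAM1 and MYH11 and their share among all genes, the gaps on CPM, the ratio to PECAM1 and the counts at an unadjusted p were chosen after seeing the data. The members and lists were chosen with earlier results of these data known. All 38 members are accounted for. From each other list the tested genes with the smallest p were named, and GJA5, ESAM, members with a library standing apart and those leading their role were given in full. The p-values of the group comparison set a difference against the spread between these animals. Those of the correlations set r against shuffled libraries. The result for 1 gene of the leukocyte list is not reported here.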

Additional observations from a re-analysis of the deposited data

Results flagged for a closer look

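On log2 CPM, in 4 of 74 groups of 5 libraries, 1 library stood farther from the rest than Dixon's 95% limit for 5 values (0.710) allows, where chance gives about 1 in 20. CLDN5 was at 159 CPM in SWNT-SHP1i replicate 6, with 43.6 CPM as the next value of its group. SOX18 was at 223 CPM in the same animal, with 66.4 CPM next. HEY1 was at 21.5 CPM in SWNT-SHP1i replicate 5, with 12.5 CPM next. FLT4 was at 30.0 CPM in SWNT replicate 1, with 6.98 CPM next. On CPM without the log, 20 groups passed the same limit, 10 of them through SWNT-SHP1i replicate 6 and 7 through SWNT replicate 3. The limit assumes normally distributed values, which CPM without the log need not follow. The share over all genes was not computed on either scale, so neither count shows an excess among the members.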

How the results depend on the processing

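No member was called under any alternative, and the 1 gene of the table called by DESeq2 was not a member. Of 629 fold changes of members under alternatives, 548 kept their sign and 81 reversed. For 16 members no alternative reversed the sign. With 1 library left out the log2 fold change ran from -0.44 to 0.79 for CLDN5, -0.15 to 1.47 for EGFL7, -0.40 to 1.21 for ROBO4, -0.34 to 0.36 for EMCN, -0.069 to 0.53 for MMRN2, -0.43 to 0.62 for ECSCR, -0.52 to 0.21 for FLT1, -0.30 to 0.16 for TEK, -0.54 to 0.20 for KLF2, -0.70 to 0.46 for NOS3 and -0.63 to 0.081 for S1PR1. It ran from -0.68 to 0.72 for SOX17, -0.62 to 0.20 for DLL4, -0.56 to 0.021 for BMX, -0.56 to 0.80 for ICAM1, -0.54 to 0.30 for VCAM1, -2.04 to 1.35 for SELE, -0.35 to 0.47 for SELP, -0.51 to 1.03 for FLT4 and -0.48 to 2.12 for MMRN1. Without SWNT-SHP1i replicates 3 and 6 the reversed values were -0.35 (CLDN5), -0.20 (EGFL7), -0.37 (ROBO4), -0.19 (ECSCR), 0.071 (FLT1), 0.22 (TEK), 0.11 (BMX) and -0.21 (FLT4). In limma-voom they were 0.44 (EMCN), 0.52 (FLT1), 0.49 (TEK), 0.24 (KLF2), 0.58 (NOS3), 0.47 (S1PR1), 0.44 (SOX17), 0.48 (BMX), 0.30 (ICAM1), 0.36 (VCAM1), 0.90 (SELE), -0.039 (FLT4) and 1.32 (MMRN1). Over the animals with B9 numbers they were 0.40 (EMCN), 0.44 (FLT1), 0.32 (TEK), 0.33 (KLF2), 0.51 (NOS3), 0.20 (S1PR1), 0.90 (SOX17), 0.47 (DLL4), 0.019 (HEY1), 0.18 (BMX), 0.91 (ICAM1), 0.23 (VCAM1), 1.67 (SELE) and 0.007 (MMRN1). With the animal number range as a covariate they were 0.067 (EMCN), 0.038 (NOS3), 0.31 (SOX17), 0.41 (ICAM1), 0.88 (SELE) and -0.007 (FLT4). ICAM1 was at 0.027 and MMRN1 at 0.028 under RLE scaling, and at 0.028 and 0.032 in DESeq2. Among the pairs, r moved to 0.93 (TEK and TIE1), 0.78 (KDR and FLT1) and 0.20 (PROX1 and FLT4) without SWNT-SHP1i replicates 3 and 6, to 0.23 (KLF2 and NOS3) and 0.27 (ICAM1 and SELE) without the 2 farthest libraries, and to 0.15 (PROX1 and FLT4) on CPM without the log. The cause was not tested. No paired analysis was possible because the replicate numbers were given in accession order and pair no animals. Depth limits SELE and PROX1, which had 0 counts in at least 1 library.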
